A study of Homo sapiens with 4 samples.

Results

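The Arp2/3 complex and its activator N-WASP were followed through 10 genes of the 47251 in the deposited gene table, chosen by name. They were the actin-related proteins ACTR2 and ACTR3, the ARPC subunits ARPC1A, ARPC1B, ARPC2, ARPC3, ARPC4, ARPC5 and ARPC5L, and WASL, which encodes N-WASP. The cells were AGS, an established line from a human gastric adenocarcinoma, grown in DMEM with 10% FBS. Of the 4 RNA libraries, 2 came from cells carrying an shRNA against MFAP2, a microfibril-associated protein of the extracellular matrix, and 2 from control cells carrying a negative-control shRNA. Both groups had been through lentiviral delivery and puromycin selection, and both libraries of the sh-MFAP2 group carried the same single shRNA, so effects of that hairpin and of the loss of MFAP2 cannot be told apart. The comparison addressed how transcripts of the actin branching machinery stood after MFAP2 silencing, in a study concerned with the motility of gastric cancer cells.

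The Arp2/3 complex binds the side of an existing actin filament and starts a new filament from it as a branch, which builds the flat protrusions at the front of a moving epithelial cell and also serves endocytosis. Its ACTR2 and ACTR3 subunits resemble actin and act as the first units of the branch, while the ARPC subunits hold them together and grip the mother filament. The complex is nearly inactive alone and is switched on by proteins such as N-WASP, which releases its own inhibition when it meets CDC42 and membrane phosphoinositides.

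The MFAP2 transcript was listed at 0 with the shRNA and at 0.0116 and 0.0138 FPKM in the controls, levels too low to check the labels. FPKM is fragments scaled by length and depth. All 6 epithelial markers looked at were measured, with EPCAM between 193 and 210 FPKM in the 4 libraries. CLDN4 was at 47.1 FPKM in sh-MFAP2 replicate 1 and at 0.551 FPKM or lower in the other libraries. The leukocyte markers PTPRC, CD3E and CD14 stayed at or below 0.0511 FPKM, and the 4 endothelial markers at or below 0.0298 FPKM. CD68, a lysosomal protein, was at 3.13 and 3.12 FPKM with sh-MFAP2 against 7.85 and 7.20 FPKM in the controls. Of 6 fibroblast markers only COL1A1 was above 0.0656 FPKM, at 2.27 and 2.07 FPKM against 4.36 and 4.92 FPKM. The part of these markers in the values of the members was not tested. The files give no read depth, but the steps between low values implied between 27400000 and 37600000 fragments per library if reads came in pairs. Behind the 10 genes this implied 321 fragments at the lowest, for WASL in sh-MFAP2 replicate 1, and 693 or more for the other genes. Labels do not say whether the replicates were separate cultures, so P-values measure only the spread between these libraries, which may be technical.

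No member of the complex passed the thresholds of the comparison. All 10 genes had a mean of at least 1 FPKM and entered the limma fit of log2(FPKM + 1) over 9873 genes. None of the 10 was called at P under 0.01 with adjusted P under 0.05, where 0.273% of all genes tested were called, and 1 of 10 had an unadjusted P under 0.05, against 12.3% of all genes. Both sh-MFAP2 libraries lay below both controls in 4 of 10 members, against 31.4% of all genes, and above both controls in 0 of 10, against 17.5%. The median log2 fold change, sh-MFAP2 minus control, was -0.18 over the members and -0.05 over all genes tested, and it was -0.02 over the 9 subunits without WASL. The fold change was below 0 for 8 members and above 0 for 2, against 5722 and 4151 of all genes tested. With scaling by median of ratios it was below 0 for 5 members and above 0 for 5. Under that scaling both sh-MFAP2 libraries lay below both controls in 3 members and above both in 2. On the log2(FPKM + 1) scale the pseudocount of 1 makes the fold change of a weakly expressed gene too small.

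The members differed in how well their replicates matched. The highest library exceeded the lowest by more than 2 times in 4 of 10 members, namely ACTR2, ARPC5, ARPC5L and WASL, against 19.8% of all genes tested. For ACTR2, ARPC1B, ARPC2, ARPC3 and ARPC5L the distance between replicates exceeded the difference between groups in both groups. For ACTR3, ARPC5 and WASL it did so only in the sh-MFAP2 group, for ARPC1A only in the controls, and for ARPC4 in neither. The control replicates of ARPC5 and WASL were 0.28 and 0.09 apart on the log2 scale, against fold changes of -0.58 and -1.08. sh-MFAP2 replicate 1 was the lowest of the 4 libraries for 5 of 10 members, and for 3755 of the 9873 genes tested. Without that library the median over the members was 0.06 instead of -0.18.

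**Figure D1:**
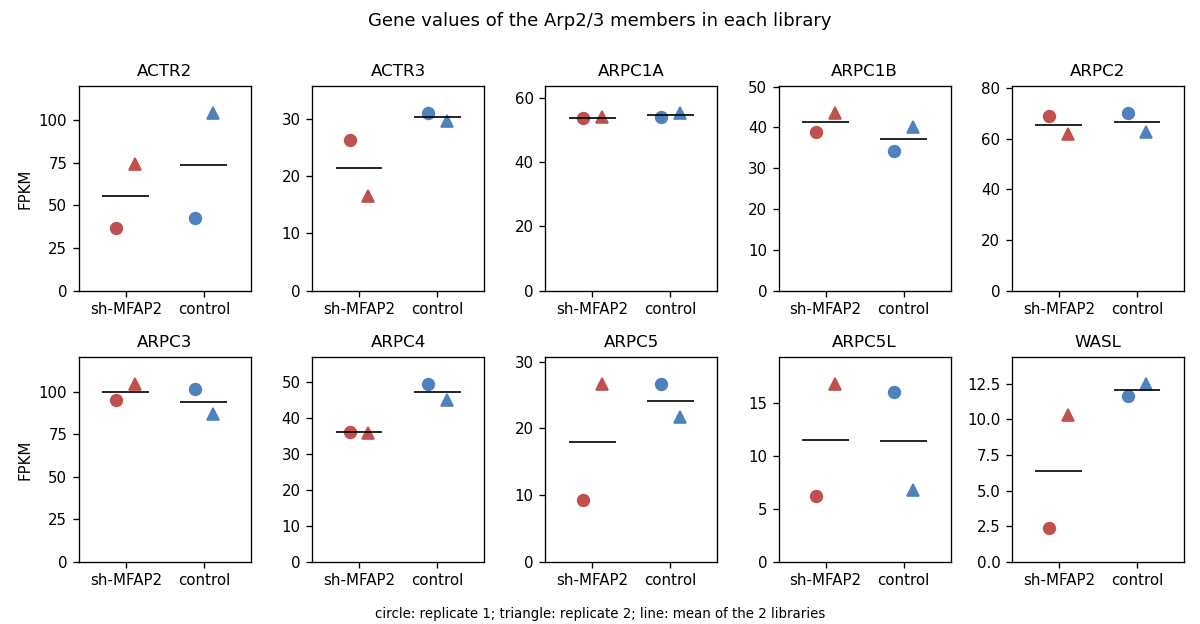
Gene values in FPKM for the 10 members, with circles for replicate 1, triangles for replicate 2 and a line at the mean of the 2 libraries of each group, every axis starting at 0. ARPC1A is nearly level in all 4 libraries, ARPC4 is lower in both sh-MFAP2 libraries, and ARPC5L is low in 1 library of each group.

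ACTR2, 1 of the 2 actin-like subunits (chromosome 2 of GRCh38, 65227753 to 65271253, plus strand), was measured at 37.0 and 74.6 FPKM in the first and second sh-MFAP2 library against 42.7 and 104 FPKM in the first and second control. The groups overlapped, and the first replicate of each group was low. On the log2 scale the fold change was -0.34 with SE 0.596 and an adjusted P of 0.816 in limma. Its sign turned on single libraries, at 0.16 when sh-MFAP2 replicate 1 was left out and 0.30 when control replicate 2 was left out.

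Behind the ACTR2 value were 2 coding transcripts that differ by a small internal exon and outside the coding part. They are shown because the libraries divided them differently. The exon lies at chr2:65242049-65242063 on the plus strand, holds 15 bases (5 codons) and is present in ACTR2-202 (ENST00000377982) but not in ACTR2-201 (ENST00000260641). The coding sequences around it, from GENCODE 29 transcripts, read as follows, with the exon in capitals.
ACTR2-202: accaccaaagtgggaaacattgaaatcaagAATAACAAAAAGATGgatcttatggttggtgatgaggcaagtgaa
ACTR2-201: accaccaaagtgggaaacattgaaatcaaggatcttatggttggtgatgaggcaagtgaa
The form with the exon has 399 codons in 2685 bases, and the form without it has 394 codons in 3861 bases. Most of this difference in length lies outside the coding part, so the shares of the 2 forms do not measure the exon alone.

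ACTR2-202, the form with the exon, stood at 26.4 and 5.95 FPKM with sh-MFAP2 against 5.25 and 29.04 FPKM in the controls. It made up 52.7% of the summed transcript FPKM of ACTR2 in sh-MFAP2 replicate 1, 6.89% in sh-MFAP2 replicate 2, 10.4% in control replicate 1 and 22.7% in control replicate 2. The share was therefore high in 1 library of each group, and the groups overlapped. ACTR2-201 led in the other 3 libraries, with 45.9% in sh-MFAP2 replicate 1 and 75.8% to 92.2% elsewhere.

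ACTR3, the other actin-like subunit (chromosome 2, 113889960 to 113962596, plus strand), gave 26.2 and 16.4 FPKM with sh-MFAP2 against 31.0 and 29.6 FPKM in the controls. Each sh-MFAP2 value was below the controls, which lay close together. The log2 fold change was -0.52 with SE 0.255, a 95% interval from -1.25 to 0.20 and an adjusted P of 0.474 in limma. It was -0.20 without sh-MFAP2 replicate 2 and -0.85 without sh-MFAP2 replicate 1. A single coding transcript, ACTR3-201 (ENST00000263238, 418 codons), held over 95% of the summed FPKM in every library, so the gene value followed it closely. The transcript's own values were higher, at 46.6 and 29.1 FPKM with sh-MFAP2 against 55.1 and 52.5 FPKM in the controls. The gene values were scaled by a length of 12049 bases, against 6718 for the transcript. GENCODE 29 names 2 pseudogenes after ACTR3 and 3 after ARPC3, and reads shared with such copies could have been divided in ways the deposited values do not show.

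ARPC2 and ARPC4 form the core that binds the mother filament, and their gene values behaved differently. ARPC4 (chromosome 3, 9792495 to 9807726, plus strand) was at 36.1 and 35.8 FPKM with sh-MFAP2 against 49.4 and 45.1 FPKM in the controls. The groups did not overlap, and each group's replicates lay closer to each other than to the other group. This was the only member with an unadjusted P under 0.05, at a log2 fold change of -0.38 with SE 0.110, a 95% interval from -0.70 to -0.07 and an adjusted P of 0.393 in limma, above the threshold. The fold change ran from -0.45 to -0.32 when each library was left out in turn, and the unadjusted P was under 0.05 only when the library left out was sh-MFAP2 replicate 1. Its annotation overlaps TADA3 on the opposite strand, at 11.7 to 12.7 FPKM, and the read-through gene ARPC4-TTLL3 on the same strand, at 0.164 to 0.295 FPKM. Whether counting used strand is not given in the sources used here.

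ARPC4-201 (ENST00000397261, 168 codons), the main transcript of ARPC4, showed the same order as the gene, with 43.9 and 37.1 FPKM against 59.3 and 50.2 FPKM, and a log2 fold change of -0.42 (adjusted P = 0.684, limma over transcripts). ARPC4-208 (ENST00000498623), which has a shorter reading frame of 78 codons, was at 1.68 and 16.0 FPKM against 6.58 and 16.2 FPKM and overlapped between groups. ARPC4-203 (ENST00000433034, 187 codons) was at 2.08 and 4.54 FPKM with sh-MFAP2 against 0.828 and 1.18 FPKM in the controls, the reverse order, with a log2 fold change of 1.05 (adjusted P = 0.657, limma). The summed transcripts of ARPC4 were 48.1 and 59.4 FPKM with sh-MFAP2 against 67.5 and 68.4 FPKM in the controls, also without overlap, but on this scale neither ARPC4 nor any other member had an unadjusted P under 0.05.

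ARPC2 (chromosome 2, 218217094 to 218254356, plus strand) had gene values of 68.8 and 61.9 FPKM with sh-MFAP2 against 70.2 and 62.6 FPKM in the controls. The groups overlapped, and the highest library was 1.13 times the lowest. The log2 fold change was -0.02 with SE 0.129, a 95% interval from -0.39 to 0.34 and an adjusted P of 0.951 in limma. The sign was positive, at 0.03, with scaling by median of ratios, and also when sh-MFAP2 replicate 2 (0.05) or control replicate 1 (0.06) was left out.

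Beneath this level gene value, the transcripts of ARPC2 were divided differently in the 2 groups. ARPC2-201 (ENST00000295685) was at 1.64 and 20.5 FPKM with sh-MFAP2 against 145 and 121 FPKM in the controls. ARPC2-202 (ENST00000315717) was at 253 and 170 FPKM with sh-MFAP2 against 128 and 114 FPKM in the controls. Neither transcript overlapped between groups. ARPC2-201 made up 0.557% and 8.07% of the summed ARPC2 FPKM with sh-MFAP2 against 49.2% and 45.7% in the controls. ARPC2-202 made up 86.3% and 66.9% with sh-MFAP2 against 43.4% and 43.0% in the controls.

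The limma fit over transcripts gave ARPC2-201 a log2 fold change of -4.14 with SE 1.13 and an adjusted P of 0.590. For ARPC2-202 the log2 fold change was 0.78 with SE 0.259 and an adjusted P of 0.648. Each had an unadjusted P under 0.05, and neither passed the thresholds. Both transcripts have the same coding exons, 300 codons in all, and differ outside them, also ahead of the start codon, where ARPC2-201 keeps 208 bases (chr2:218217255-218217462) that ARPC2-202 removes by splicing. The estimates for this pair rest on how the program divided reads outside the coding part, and the program is not given in the sources used here.

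ARPC2-209 (ENST00000470146), a transcript annotated as retaining an intron, was at 18.1 and 14.6 FPKM with sh-MFAP2 against 4.48 and 5.53 FPKM in the controls. Its groups were far apart compared with the distance between replicates. It had the lowest P of the 31 transcripts tested, with a log2 fold change of 1.53, SE 0.214 and an adjusted P of 0.304 in limma. ARPC2-208 (ENST00000465395), also annotated as retaining an intron, was at 3.77 and 2.17 FPKM with sh-MFAP2 against 1.12 and 0.952 FPKM in the controls. Its adjusted P was 0.618 in limma. ARPC2-217 (ENST00000489598), another such form, was at 3.86 and 9.71 FPKM against 8.85 and 11.5 FPKM, lower on average and overlapping. The transcript ENST00000477992, which has no annotated reading frame, was at 27.8 FPKM in sh-MFAP2 replicate 2 and at 3.06 to 4.83 FPKM in the other 3 libraries, so 1 library alone held it high.

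ARPC3 (chromosome 12, 110434825 to 110450422, minus strand), a small subunit that joins ACTR3 to the rest of the complex, was at 95.3 and 105 FPKM with sh-MFAP2 against 102 and 86.9 FPKM in the controls. The groups overlapped, at a log2 fold change of 0.09 with SE 0.139 and an adjusted P of 0.798 in limma. The value was -0.03 without control replicate 2. ARPC3-201 (ENST00000228825), its main transcript, ran from 257 to 309 FPKM over the 4 libraries.

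ARPC1A and ARPC1B are paralogs that take the same place in the complex, as a propeller-shaped subunit that contacts activators. They are neighbours on the plus strand of chromosome 7, at 99325910 to 99366262 and 99374249 to 99394816, with 7986 bases between them. ARPC1A was the most even member, at 53.8 and 53.9 FPKM with sh-MFAP2 against 54.0 and 55.4 FPKM in the controls. The sh-MFAP2 values were both below the controls, but by less than 1 FPKM from the nearest control, and the highest library was 1.03 times the lowest. The log2 fold change was -0.02 with SE 0.101, a 95% interval from -0.31 to 0.26 and an adjusted P of 0.935 in limma, and it was 0.03 with scaling by median of ratios and 0.000591 after quantile normalization.

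ARPC1B was at 38.8 and 43.6 FPKM with sh-MFAP2 against 34.2 and 40.0 FPKM in the controls. The groups overlapped, and the log2 fold change was 0.15 with SE 0.141 and an adjusted P of 0.658 in limma. Leaving out control replicate 1 gave 0.04, leaving out sh-MFAP2 replicate 2 gave 0.07, and leaving out sh-MFAP2 replicate 1 or control replicate 2 gave 0.23 or 0.26. On summed transcripts the value was 0.06. PDAP1 overlaps ARPC1B on the opposite strand and was at 48.0 to 55.0 FPKM, and the same-strand gene AC004922.1, not analysed here, overlaps both ARPC1A and ARPC1B. The ratio of ARPC1B to ARPC1A gene values was 0.722 and 0.808 with sh-MFAP2 against 0.633 and 0.723 in the controls. These ratios overlapped between groups, with a log2 difference of 0.18 (two-sided exact permutation P = 0.667, where 0.333 is the smallest value that 2 against 2 libraries can give). That difference ran from 0.08 without control replicate 1 and 0.09 without sh-MFAP2 replicate 2 to 0.27 without control replicate 2. The gene values rest on unlike gene lengths, 3979 bases for ARPC1B and 2042 for ARPC1A. On summed transcripts the ratios were 1.48 and 1.68 with sh-MFAP2 against 1.42 and 1.56 in the controls. They overlapped too, with a log2 difference of 0.08, and ARPC1B was above ARPC1A in every library.

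Control replicate 1 was unlike the other 3 libraries in the transcripts of ARPC1B. ARPC1B-201 (ENST00000252725) was at 96.7 and 106 FPKM with sh-MFAP2, 16.1 FPKM in the first control and 94.8 FPKM in the second. ARPC1B-211 (ENST00000451682) was at 53.1 FPKM in control replicate 1 and at 0.192 to 0.929 FPKM in the others. In GENCODE 29 both forms carry the same 372 coding codons. There ARPC1B-211 has 2 exons of 142 and 102 bases ahead of the start codon that ARPC1B-201 lacks. The deposited length of ARPC1B-201 was 1551 bases against 1564 in GENCODE 29, and that of ENST00000427217 was 545 against 1578. The transcript models behind the ARPC1B values thus differed in part from those described. ENST00000484600, an intron-retaining form, was at 0 and 0.727 FPKM with sh-MFAP2 against 15.8 and 2.95 FPKM in the controls, with a log2 fold change of -2.63 and an adjusted P of 0.638 in limma. The high value of this form was again that of control replicate 1.

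ARPC5 and ARPC5L are the other pair of paralogs that take 1 place in the complex, and both were uneven between replicates. ARPC5 (chromosome 1, 183620846 to 183635757, minus strand) was at 9.21 and 26.7 FPKM with sh-MFAP2 against 26.6 and 21.7 FPKM in the controls. In these gene values only sh-MFAP2 replicate 1 was low, and sh-MFAP2 replicate 2 was level with the higher control. The log2 fold change was -0.58 with SE 0.543 and an adjusted P of 0.656 in limma. It was 0.14 without sh-MFAP2 replicate 1 and -1.30 without sh-MFAP2 replicate 2. The summed transcripts of ARPC5 were 24.9 and 40.9 FPKM with sh-MFAP2 against 39.9 and 51.6 FPKM in the controls. There sh-MFAP2 replicate 1 was again the lowest library, but control replicate 2 was the highest.

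The 2 main coding transcripts of ARPC5 differ by 9 coding bases at chr1:183633155-183633163 on the minus strand. These bases add 3 codons in length but begin inside a codon. Outside the coding part the transcripts also differ, mostly but not only in their 3′ ends. The transcripts are shown because their order changed between libraries without following the groups. The lines give the coding strand from GENCODE 29 transcripts, with the 9 bases in capitals.
ARPC5-201: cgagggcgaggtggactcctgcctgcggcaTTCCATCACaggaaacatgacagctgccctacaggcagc
ARPC5-202: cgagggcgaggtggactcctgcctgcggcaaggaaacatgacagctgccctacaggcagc
ARPC5-201 (ENST00000294742) has 154 codons in 1637 bases, and ARPC5-202 (ENST00000359856) has 151 codons in 7209 bases, extending 5612 bases past the last base of ARPC5-201.

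ARPC5-201, the form with the additional coding bases, was at 14.2 FPKM in sh-MFAP2 replicate 1 and at 24.5 FPKM in the second control. It was listed at 0 in sh-MFAP2 replicate 2 and in the first control. ARPC5-202 was at 10.2 and 38.5 FPKM with sh-MFAP2 against 38.9 and 26.2 FPKM in the controls. Each group thus held 1 library with ARPC5-201 and 1 in which it was listed at 0. Limma gave adjusted P-values of 0.969 and 0.787 for the 2 transcripts.

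ARPC5L (chromosome 9, 124862130 to 124877733, plus strand) was at 6.28 and 16.8 FPKM with sh-MFAP2 against 16.1 and 6.80 FPKM in the controls. The low libraries, sh-MFAP2 replicate 1 and control replicate 2, were those in which ARPC5-201 was above 0. The log2 fold change was -0.02 with SE 0.633, a wide 95% interval from -1.82 to 1.78 and an adjusted P of 0.993 in limma. Leaving out sh-MFAP2 replicate 1 turned it to 0.63, and leaving out control replicate 1 turned it to 0.55. It was also above 0 after quantile normalization (0.04) and scaling by median of ratios (0.03). The ratio of ARPC5L to ARPC5 gene values was 0.682 and 0.631 with sh-MFAP2 against 0.603 and 0.313 in the controls. The groups did not overlap in this ratio, with a log2 difference of 0.59 and a two-sided exact permutation P of 0.333, the smallest possible. The difference was 0.12 without control replicate 2 and 1.07 without control replicate 1. With summed transcripts the ratios were 0.668 and 1.11 against 1.09 and 0.350, which overlapped, and the exact permutation P was 0.667.

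WASL (chromosome 7, 123681935 to 123749067, minus strand), the activator, had the largest fold change of the 10 members and the least even replicates. It was at 2.37 and 10.3 FPKM with sh-MFAP2 against 11.7 and 12.5 FPKM in the controls. Each sh-MFAP2 value was below the controls, but sh-MFAP2 replicate 2 lay near the controls and sh-MFAP2 replicate 1 far below them. Its log2 fold change was -1.08 with SE 0.644, a 95% interval from -2.91 to 0.75 and an adjusted P of 0.529 in limma. Without sh-MFAP2 replicate 1 it was -0.21, and without sh-MFAP2 replicate 2 it was -1.95. The highest library was 5.27 times the lowest.

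**Figure D2:**
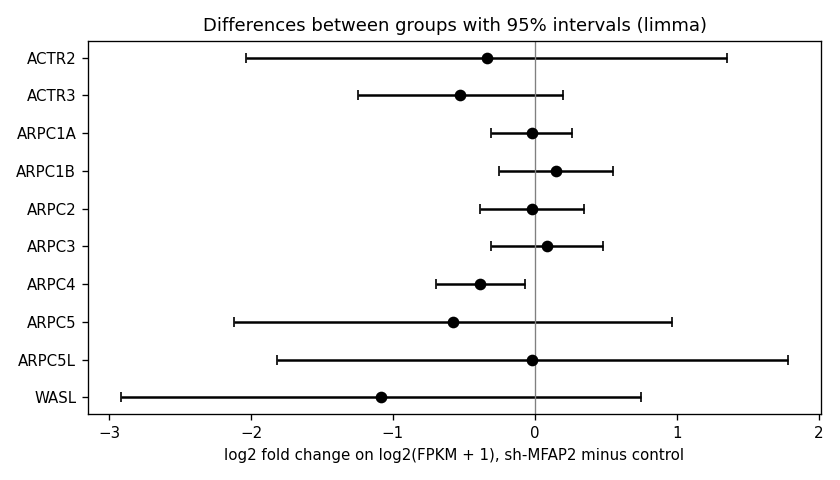
Log2 fold change of each member on log2(FPKM + 1), sh-MFAP2 minus control, as points with 95% intervals from limma on 2 libraries per group. The interval of ARPC4, from -0.70 to -0.07, is the only one that leaves out 0, and those of ACTR2, ARPC5, ARPC5L and WASL are the widest.

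Levels of different members were compared on summed transcript FPKM, in which each transcript is scaled by its own length. ARPC3 was highest, with 288 and 316 FPKM with sh-MFAP2 against 308 and 263 FPKM in the controls. ARPC2 came next with 294 and 254 FPKM against 294 and 264 FPKM, and the 2 ranges overlapped. Below them by mean over the 4 libraries were ARPC1B at 109 FPKM, ACTR2 at 78.7 FPKM, ARPC1A at 70.9 FPKM, ARPC4 at 60.9 FPKM, ACTR3 at 47.5 FPKM, ARPC5 at 39.3 FPKM and ARPC5L at 30.9 FPKM. WASL was lowest at 9.21 FPKM, 3.13% of ARPC3. Of the 9 neighbouring pairs in this order, 6 overlapped in their library values, and the 3 that did not were ARPC2 with ARPC1B, ARPC1A with ARPC4, and ARPC5L with WASL.

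**Figure D3:**
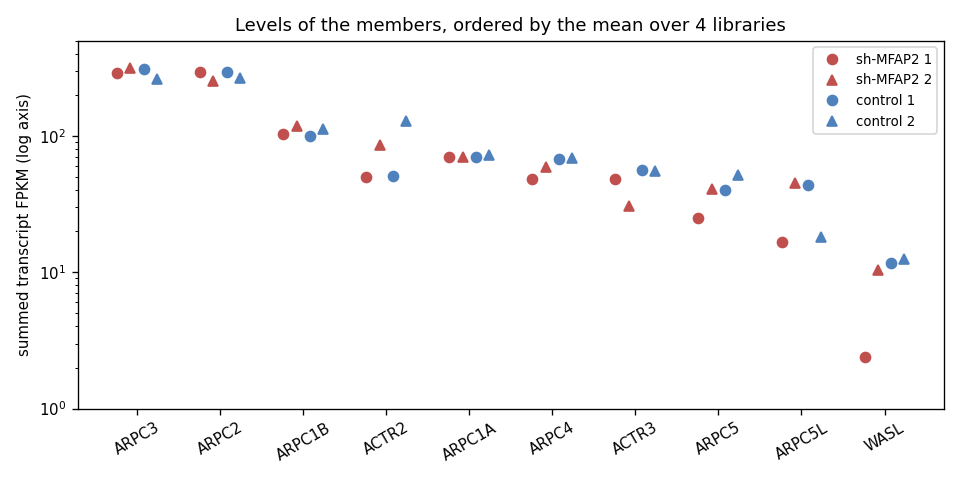
Summed transcript FPKM of each member in each library on a log axis, ordered by the mean over 4 libraries, with colours for groups and shapes for replicates. The subunits span from 294 FPKM for ARPC3 to 30.9 FPKM for ARPC5L on average, and WASL lies below them at 9.21 FPKM.

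Among the 9 subunits alone, the highest mean level was 9.52 times the lowest. The summed gene values of the 9 subunits were 371 and 435 FPKM with sh-MFAP2 against 426 and 452 FPKM in the controls. These sums overlapped, with a log2 difference of -0.13 and a two-sided exact permutation P of 0.667. Leaving out a library gave -0.01 (sh-MFAP2 replicate 1), -0.24 (sh-MFAP2 replicate 2), -0.17 (control replicate 1) or -0.08 (control replicate 2). On summed transcripts the sums were 944 and 1022 FPKM against 1031 and 1033 FPKM, without overlap, with a log2 difference of -0.07 and an exact permutation P of 0.333, the smallest possible. The mean of log2(FPKM + 1) over the subunits was 5.03 in sh-MFAP2 replicate 1 and between 5.36 and 5.42 in the other 3 libraries, so 1 library stood low.

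The 10 members had 75 listed transcripts, of which 31 reached a mean of 1 FPKM and were tested among 22312 transcripts. None of the 31 was called by limma, as among all transcripts (0%), and 5 of 31 had an unadjusted P under 0.05 (7.64% of all transcripts), 4 of them in ARPC2 and 1 in ARPC1B. Both sh-MFAP2 libraries lay below both controls in 10 of 31 and above both in 6 of 31, where the shares over all transcripts were 24.9% and 17.8%. ARPC5L-201 and WASL-201 each held over 95% of their gene's summed FPKM in every library, as did ARPC1A-201 and ACTR3-201.

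Among the 6 members with at least 2 tested transcripts, the leading transcript was not the same in all 4 libraries for 4 (ACTR2, ARPC1B, ARPC2 and ARPC5), against 32.2% of 5133 such genes. For 1 of the 6, ARPC2, the leading transcript was shared within each group and differed between groups, which held for 2.92% of the 5133 genes. In ACTR2, ARPC1B and ARPC5 it was 1 library that differed from the other 3.

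**Figure D4:**
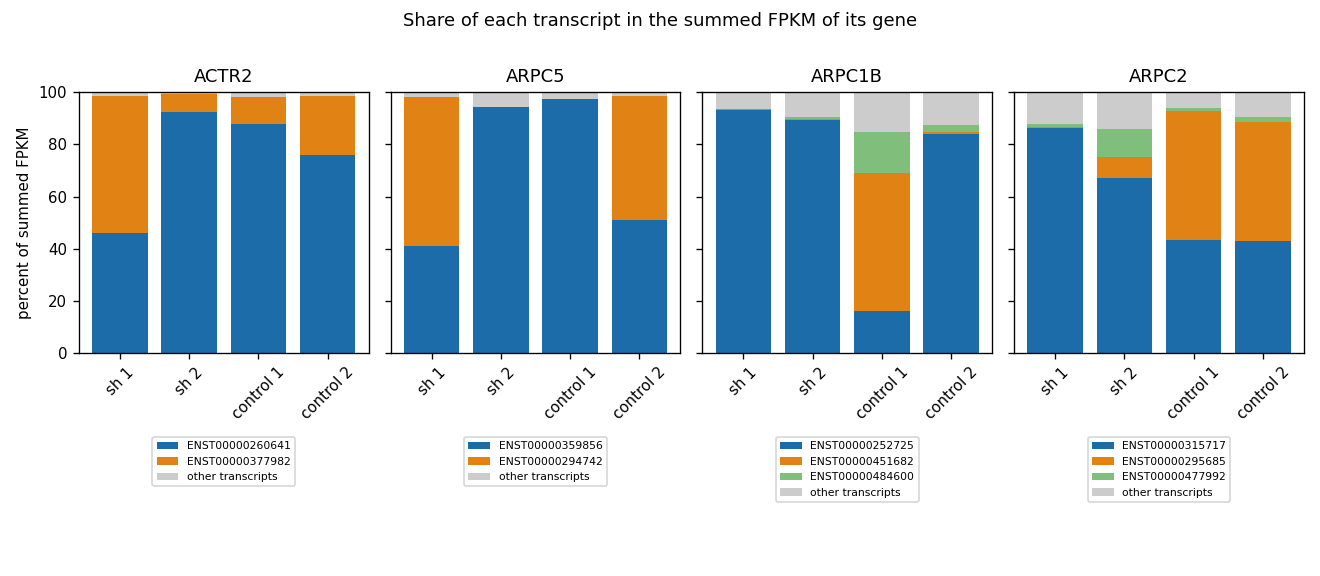
Stacked bars give the percent of the summed FPKM of ACTR2, ARPC5, ARPC1B and ARPC2 held by each transcript in each library, with transcripts under 10% in every library joined in grey. ARPC2 divides by group (0.557% and 8.07% against 49.2% and 45.7% for ENST00000295685), while ACTR2 and ARPC5 have 1 library in each group with a larger share of the second transcript and ARPC1B differs in control replicate 1.

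The remaining genes of actin assembly were described from lists of 79 genes, of which 57 had a mean of at least 1 FPKM. None of the 57 was called by limma, and 10 had an unadjusted P under 0.05, against 12.3% of all genes tested. Over all genes tested the fold change was below 0 for 5722 and above 0 for 4151. Among the 57 it was below 0 for 43 and above 0 for 14, with a median of -0.14. With median of ratios scaling these counts were 37 and 20, and after quantile normalization 36 and 21. Both sh-MFAP2 libraries lay below both controls for 24 of 57 (31.4% of all genes) and above both for 6 (17.5% of all genes).

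N-WASP is recruited and opened by partners, of which 10 of 12 were tested, with a median log2 fold change of -0.10 (-0.02 after quantile normalization, -0.06 with median of ratios scaling). FNBP1L, a membrane-bending adaptor that works with CDC42 on N-WASP, had the lowest value of this list, with 5.47 and 15.5 FPKM against 17.9 and 19.2 FPKM, a log2 fold change of -0.92 and an adjusted P of 0.503 in limma. As for WASL, the low library was sh-MFAP2 replicate 1. RAC1, a small GTPase that acts mainly through the WAVE complex, had the highest value of this list, a log2 fold change of 0.13 (adjusted P = 0.623, limma). CDC42, named here after its values were seen, was at 114 and 129 FPKM against 153 and 146 FPKM, a log2 fold change of -0.30 with an adjusted P of 0.424 in limma.

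The other activators of the complex had values on both sides of 0. In the WAVE complex, which activates Arp2/3 in lamellipodia, 7 of 11 genes were tested with a median of -0.14, from -0.44 for WASF2 (3.003 and 11.1 FPKM against 14.1 and 4.92 FPKM, overlapping) to 0.18 for WASF1. In the WASH complex, which acts on endosomes, all 6 genes were tested with a median of -0.21. WASHC5 had the lowest value there, 9.86 and 10.3 FPKM against 13.3 and 13.9 FPKM, with a log2 fold change of -0.40 and an adjusted P of 0.361 in limma. WASH1 had the highest, 6.52 and 6.94 FPKM against 4.62 and 4.55 FPKM, with a log2 fold change of 0.47 and an adjusted P of 0.332, but it belongs to a family of near-identical copies among which reads can be divided. Of 6 further activators 4 were tested, from -0.14 for CTTN (cortactin, which stabilises branches) to 0.05 for NCKIPSD. ACTR3B, a close relative of ACTR3, was at 1.56 and 1.61 FPKM against 1.21 and 1.48 FPKM, with a log2 fold change of 0.15 (adjusted P = 0.608, limma).

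Inhibitors and proteins that take branches apart had a median of -0.04 over 7 tested of 10 (0.01 under both other scalings), from -0.39 for GMFB, which removes branches, to 0.25 for PICK1. Actin itself and its monomer and end binders had a median of -0.26 over 12 tested of 13. Of the 12, 11 were below 0 (10 under both other scalings), against 5722 of all 9873 genes tested. ACTB was the lowest of this list, with 942 and 584 FPKM against 1240 and 1286 FPKM. Its log2 fold change was -0.77 with SE 0.272 and an adjusted P of 0.406 in limma. PFN1, profilin, was the highest at 0.08. The formins and other proteins that build or extend unbranched filaments had a median of -0.32 over 10 tested of 19. Of the 10, 9 were below 0 (8 under both other scalings). Both sh-MFAP2 libraries lay below both controls for 7 of 10, against 31.4% of all genes. DAAM1, a formin, was the lowest at -0.61 (0.897 and 1.19 FPKM against 1.93 and 2.30 FPKM, adjusted P = 0.341, limma), and INF2 was the highest at 0.15. The differences between these lists and the members were not tested.

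**Figure D5:**
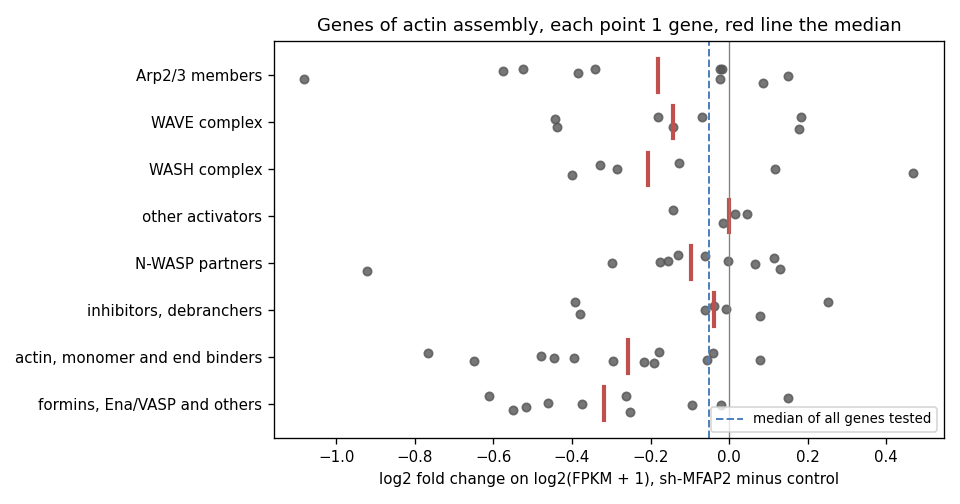
Each point is 1 gene's log2 fold change on log2(FPKM + 1), sh-MFAP2 minus control, by list, with a red line at the list's median and a dashed line at the median of all genes tested (-0.05). Medians run from -0.32 for formins, Ena/VASP and others to 0 for the other activators (-0.000704), and WASL is the leftmost point of the Arp2/3 members at -1.08.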

How the data were processed

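RNA-seq values of 4 AGS libraries (2 sh-MFAP2, 2 control) were used, grouped by their labels. The authors deposited 1 value per gene and per transcript and library, without naming a unit. The deposited values were taken as FPKM, because they are not whole numbers, differ in total between libraries and step with feature length. The labels name hg38. The aligner, the estimator and its annotation are not given in the sources used here. Gene values were sums of transcripts weighted by length over 1 gene length, so levels of different genes were compared on summed transcripts. Depth is not given. The depths printed are inferred from steps on which 59.8% to 61.0% of low values lay within 5% of the step. Chance gives 10% for a step fixed in advance, but each step was chosen to make this share largest. With the other low values off the steps, whole reads were not recovered, and no count test was used.

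Features with a mean of at least 1 FPKM were fitted in limma 3.58.1 (R 4.3.3) on log2(FPKM + 1), using lmFit and trended eBayes, with Benjamini-Hochberg adjustment over all genes or all transcripts tested. Ratios and sums were compared by a two-sided exact permutation test over 6 splits. The fit and the step finder were checked on simulated data. Coordinates and sequences came from GENCODE 29 (GRCh38), in which 43715 of 47251 identifiers (92.5%) and all 10 members were found. Python 3.11.15, pandas 2.3.3, numpy 2.4.6 and matplotlib 3.10.9 were used.

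The members and lists were chosen with earlier results of these data known. Genes named were the members, the extreme genes of each list, any called gene of a list (none) and MFAP2, with the 5 genes most like the subunit mean. Of the member transcripts with at least 1 FPKM on average, only part are printed. Alternatives covered the filter (none, or a mean of 5 FPKM), a pseudocount of 0.1, scaling, eBayes without trend, the replicate block, summed transcripts and leaving out each library. The result of 1 marker gene is not reported here.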

Additional observations from a re-analysis of the deposited data

How the results depend on the processing

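No member, no member transcript and none of the other actin genes was called by limma under any alternative. ARPC1A was at 0.000591 after quantile normalization and 0.0282 with median of ratios scaling, ARPC5L at 0.0363 and 0.0275, and ARPC2 at 0.0281 with median of ratios scaling. Leaving out each library in turn gave ranges of -0.976 to 0.295 for ACTR2, -0.105 to 0.0595 for ARPC2 (0.0521 without sh-MFAP2 replicate 2), -0.0251 to 0.199 for ARPC3, -1.30 to 0.143 for ARPC5 and -0.664 to 0.630 for ARPC5L. The same gave 5 to 7 members with the sh-MFAP2 value or values below the controls. Fewer libraries make such an order easier to reach, and the share over all genes was not taken for these settings. In the same fits the median over the members ran from -0.291 to 0.0615, and that over the actin genes from -0.207 to -0.0935. The median over the actin genes was -0.0477 with no filter. A fit on 3 libraries assumes that the lone library varies like the other group, and 0 genes were called in any of them against 27 in all 4. Without the filter 6 genes were called, and with a mean of at least 5 FPKM 9 were called. The cause of these shifts was not tested. Replicate numbers did not pair the libraries (correlation of deviations -0.0572), and with the replicate block 0 genes were called, 722 of all genes and 0 members had an unadjusted P under 0.05. Depth is known only by inference, and what it limits was not tested.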

Other observations

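The genes whose log2(FPKM + 1) was most like the mean of the 9 subunits over the 4 libraries were STX2, DDX59, GCLM, MPC2 and CDR2, with Pearson's r between 0.999877 and 0.999981. STX2 was at 1.08 and 1.88 FPKM with sh-MFAP2 against 1.96 and 1.82 FPKM in the controls. MPC2 was at 20.1 and 41.9 FPKM against 44.9 and 40.7 FPKM. These genes shared the low value of sh-MFAP2 replicate 1. With 4 points such likeness is common, as 666 of 9863 genes had r above 0.95, and it is given as a description with no test.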
